A study of Homo sapiens with 6 samples.

Results

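The nuclear genes for the subunits of the mitochondrial respiratory chain and of ATP synthase were followed in Caco-2 cells over 48 h of coculture with THP-1 cells. Genes were taken by symbol: those beginning with NDUFA, NDUFB, NDUFC, NDUFS or NDUFV for complex I, SDH for complex II, UQCR for complex III, COX4 to COX8 for complex IV and ATP5 for complex V, without pseudogenes and without the NDUFAF assembly factors. Each gene had to have a probe set annotated to it alone, and where a gene had several, the one brightest on average over the 6 arrays, in log2, stood for it. The rule found 81 of the 19775 genes on the array. Of these, 75 encode subunits: 33 of complex I, 3 of complex II, 6 of complex III, 16 of complex IV and 17 of complex V. The other 6 are the complex II assembly factors SDHAF1 to SDHAF4, the supercomplex factor COX7A2L and the ATP synthase inhibitor ATP5IF1, which were left out of the complex medians.

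Caco-2, a human colon carcinoma line that forms an enterocyte-like layer, was grown for 14 days on a porous membrane. THP-1, a human monocytic leukaemia line, was treated with phorbol myristate acetate for 4 days in 12-well plates, which turns it macrophage-like, and the membranes with Caco-2 cells were then set over these wells. RNA of Caco-2 cells was measured on 6 oligonucleotide arrays, 1 each at 0, 1, 3, 6, 24 and 48 h of coculture. There was no replicate at any time, and no array of Caco-2 cells kept alone for the same time was among those analysed here, so no test was made, every value has n = 1, and time in coculture cannot be told apart from time after handling or from array to array variation.

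Complex I takes electrons from NADH and complex II takes them from succinate, and both pass them through ubiquinone to complex III, then through cytochrome c to complex IV, which reduces oxygen. Complexes I, III and IV pump protons across the inner membrane as they do so, and complex V, the ATP synthase, makes ATP from the returning protons. Most subunits are nuclear and imported, mitochondrial DNA encodes the remainder, and absorptive intestinal cells use the ATP for ion and nutrient transport.

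The values are MAS5 signals per probe set, on a linear scale, and the 2% trimmed mean was 93.8 on every array. Signals under 16.2, the 50th percentile of all signals, were set to that floor. A gene was called measured when at least 1 array was above the floor, which held for 14623 genes. All 9 epithelial markers with a probe set (among them VIL1, CDX2, CDH1 and EPCAM) were above the floor at each time, and HNF4A had no probe set of its own. Their signals were not steady: at 48 h 4 were below 0 h and 5 above it. SI went from 555.5 at 0 h to 123 at 48 h and FABP1 from 2086 to 477.5. KRT20 went from 207 at 0 h to 836 at 24 h. Of 13 macrophage markers with a probe set, 5 to 8 were above the floor on an array, PTPRC, SPI1 and MRC1 stayed below it on every array, and the summed signal of the list was highest at 0 h (896) and lay between 568 and 789 later. AIF1 went from 360.0 at 0 h to 43.0 at 48 h, and without it the sum was 536 at 0 h, lowest at 6 h (415) and highest at 48 h (626). LYZ went from 247 to 412. For ACTB, whose control probe sets at both transcript ends give a measure of RNA and cDNA integrity, the 3' signal over the 5' signal ran from 51.2 at 0 h, its highest, to 18.0 at 6 h, its lowest. These are the times at which the median of the subunits was highest and lowest. For GAPDH this ratio lay between 3.54 (6 h) and 4.72 (24 h), with 4.69 at 0 h. The part of the macrophage RNA and of RNA integrity in the results was not tested.

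Signals of the subunit genes were lower than at 0 h at every coculture time, taken over the group. Of the 75 subunits, 71 were measured and 69 were above the floor on all 6 arrays. COX7A1, COX7B2 and COX8C, isoforms known from muscle or testis, and ATP5MF were never above the floor, and COX6A2 and COX6B2 were above it on some arrays. The median log2 ratio to 0 h over the 71 measured subunits was -0.27, -0.43, -0.51, -0.33 and -0.27 at 1, 3, 6, 24 and 48 h. For the 10446 genes of any kind above the floor on all arrays this median was -0.04, -0.10, -0.14, -0.07 and -0.10. When each array was scaled so that the median signal of those genes was equal on all arrays, the subunits' medians were -0.22, -0.32, -0.37, -0.22 and -0.15. The arrays measure RNA in bulk, and fewer cells of a type and less RNA per cell cannot be told apart.

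**Figure D1:**
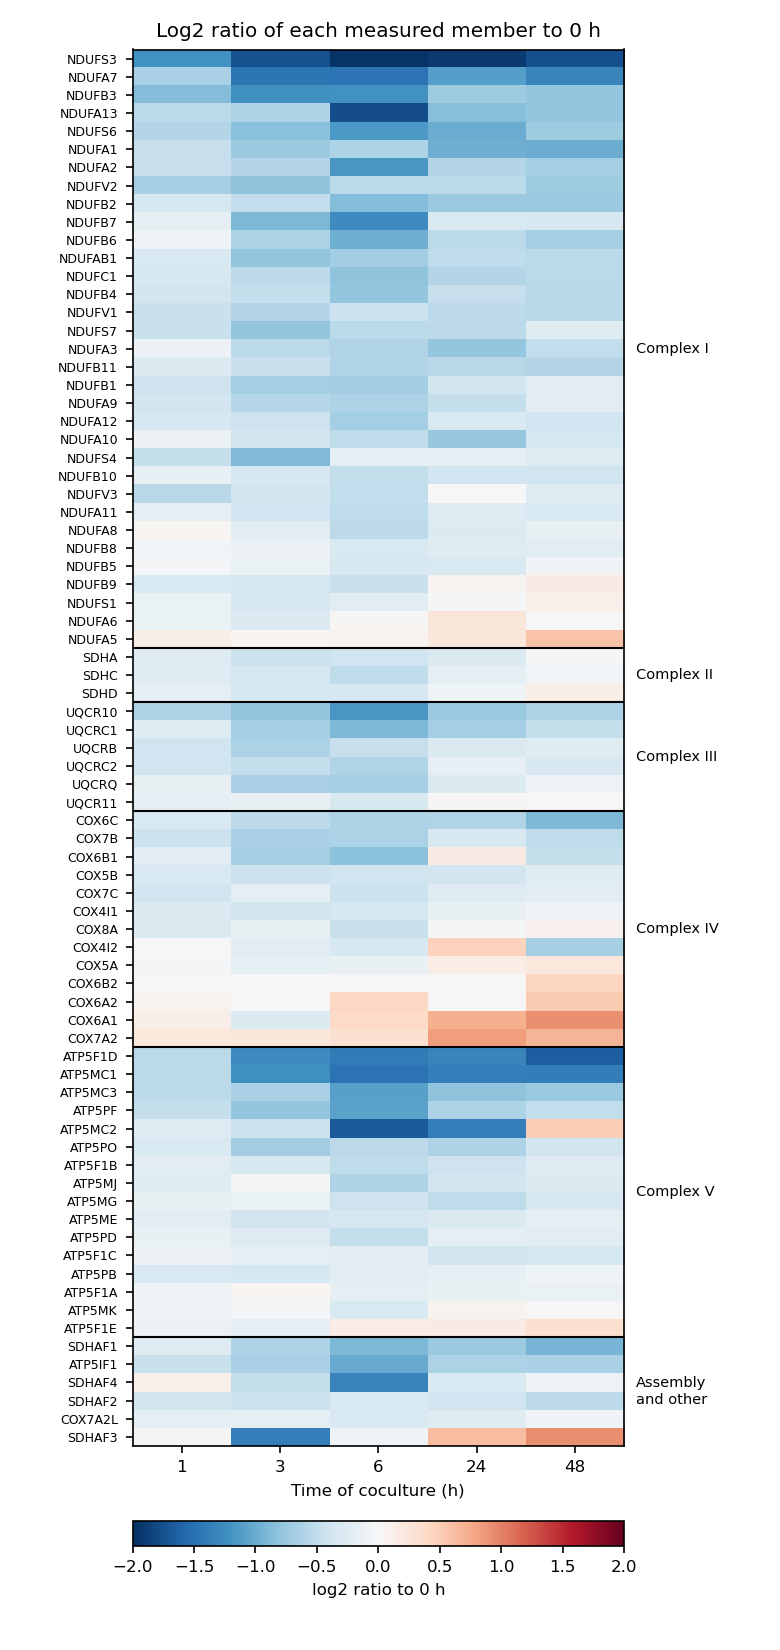
Log2 ratio of the signal at each coculture time (columns, in h) to that at 0 h for the 77 measured genes (rows, grouped by complex and ordered within it by the mean ratio), with blue for lower and red for higher. Signals under the floor were set to it. Of the 69 subunits above the floor on all arrays, 38 have their lowest signal in the 6 h column, and the deepest red of any subunit is COX6A1 at 48 h (0.92).

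The difference was shared by most of the genes rather than carried by a few. Among the 69 subunits above the floor on all arrays, 64, 66, 64, 58 and 57 were below their 0 h signal at 1, 3, 6, 24 and 48 h. Of the 10446 genes of any kind above the floor on all arrays, 5750, 6080, 6240, 5756 and 5920 were below theirs. Below 0 h at all 5 coculture times were 52 of 69 (75.4%), against 30.6% of all genes above the floor on all arrays. These 5 comparisons share the 0 h array. Only NDUFA5 and COX7A2 were above their 0 h signal at all 5 times, beside 1902 of the 10446 genes of any kind. The 6 h array gave the lowest of the 6 signals for 38 of 69 subunits (55.1%), against 22.4% of all genes above the floor on all arrays.

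By size, at least 2-fold lower than 0 h were 1, 5, 13, 5 and 4 of the 71 measured subunits at 1, 3, 6, 24 and 48 h, against a background of 1.44%, 3.52%, 6.45%, 6.14% and 6.14% of all measured genes. The share of subunits at 6 h was 18.3%, above the background, while at 1, 24 and 48 h (1.41%, 7.04% and 5.63%) it lay near it. No subunit was at least 2-fold higher at any time, against a background of 1.9%, 3.1%, 4.23%, 3.95% and 3.82% in the same order of times. With a 1.5-fold rule, 31 of 71 subunits were lower at 6 h (43.7%, background 19.1%) and 17 at 48 h (23.9%, background 17.5%), and COX6A1 and COX7A2 were higher at 24 h (background 12.0%) and at 48 h (background 11.2%). Many subunit genes are bright. Among genes with a mean signal of 500 or more, a restriction added after the values were seen, 3 of 46 subunits were at least 2-fold lower at 6 h, against 2.66% of all such genes.

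Between neighbouring arrays, the median step of the subunits was -0.27 from 0 to 1 h, -0.16 from 1 to 3 h and -0.12 from 3 to 6 h. It was 0.19 from 6 to 24 h and 0.06 from 24 to 48 h. Over all genes above the floor on every array, these steps were -0.04, -0.06, -0.04, 0.05 and -0.00. Signals were higher at 24 h than at 6 h for 62 of the 69 subunits, beside 5811 of the 10446 genes above the floor on all arrays. At 48 h the median subunit stood 0.24 above its 6 h value and 0.27 below its 0 h value on the log2 scale. Because the first step takes in the 0 h array, a single array, the medians were also taken against the 1 h array, where they were -0.16, -0.27, -0.08 and -0.05 at 3, 6, 24 and 48 h.

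All 5 complexes had medians below 0 at 1, 3 and 6 h. At 6 h the median log2 ratio was -0.61 for complex I (33 genes), -0.40 for complex II (3 genes), -0.63 for complex III (6 genes), -0.33 for complex IV (13 measured genes) and -0.49 for complex V (16 measured genes). At 48 h it was -0.39, -0.04, -0.28, -0.08 and -0.27. The complex IV medians take in COX6A2 and COX6B2, which were at the floor on some arrays: over its 11 genes above the floor on all arrays they were -0.27, -0.27, -0.39, -0.03 and -0.23 at 1, 3, 6, 24 and 48 h. Complex I had the lowest median at 24 h (-0.51) and at 48 h, and complex III had its lowest at 3 h (-0.64), close to that at 6 h. In the probe sets used, the 13 subunits at least 2-fold lower at 6 h were 7 of complex I, 1 of complex III and 5 of complex V. None was in complexes II and IV. For COX5B, of complex IV, the log2 ratio at 6 h was -0.39 in the probe set used. Its other probe sets gave -1.13, -0.07 and -0.10. Which of these differences between complexes would recur in a second culture was not tested.

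**Figure D2:**
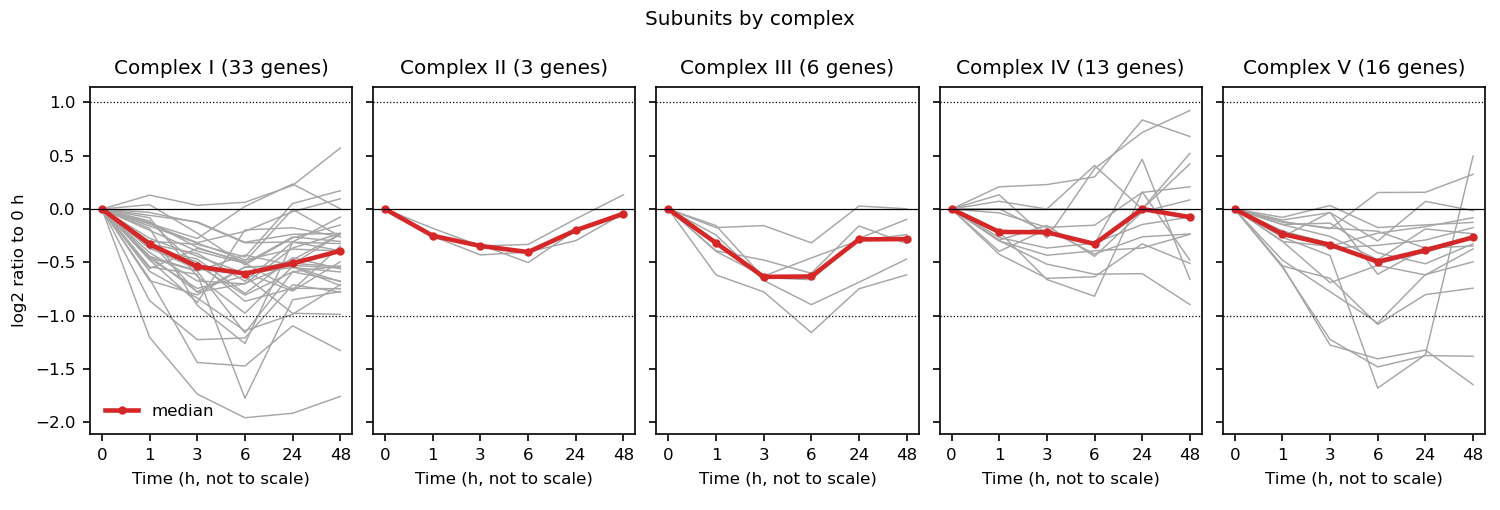
Log2 ratio of the signal to 0 h (vertical axis) over time in h (horizontal axis, not to scale) for the measured subunits of each complex, 1 grey line per gene and the median in red, with dotted lines at 2-fold. The complex I median reaches -0.61 and that of complex III -0.63 at 6 h, while the complex IV median, with COX6A2 and COX6B2 at the floor on some arrays, lies between -0.33 and 0.00.

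How well a single gene's ratio is known can be read from genes with several probe sets. For 27 of the 81 genes at least 2 probe sets (72 in all) were above the floor on all arrays. At 6 h all probe sets of a gene were lower than at 0 h for 19 genes, all were higher for 2, and they differed in sign for 6. At 1, 3, 24 and 48 h the sign differed within 11, 8, 11 and 15 of the 27 genes, and at 48 h all probe sets were lower for 11. The SD of the log2 ratio between probe sets of 1 gene, pooled over these genes, was 0.41, 0.45 and 0.51 at 1, 6 and 48 h. This spread is that of probes on 1 array and says nothing of the spread between cultures. Probe sets whose names end in _s_at or _x_at may also bind other transcripts.

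The promoters of 3 subunit genes are shown because most subunits were lower together and nuclear respiratory genes are known for sharing binding motifs. They are NDUFS3, the subunit with the lowest mean ratio, ATP5MC1, a c-subunit gene at least 2-fold lower from 3 h on, and COX6A1, the subunit with the highest ratio at 48 h. Each runs from 250 bases before the transcription start to 50 bases after it in RefSeq annotation of GRCh38.p14, on the plus strand: chr11:47578824-47579123 for NDUFS3, chr17:48892537-48892836 for ATP5MC1 and chr12:120437863-120438162 for COX6A1. Capitals mark matches, on either strand, to the motifs of NRF1 (GCGCATGC), the ETS factors such as GABP (CCGGAAG), YY1 (AAGATGGC) and SP1 (GGGCGG). In NDUFS3 the SP1 match and 1 of the ETS matches overlap.
NDUFS3: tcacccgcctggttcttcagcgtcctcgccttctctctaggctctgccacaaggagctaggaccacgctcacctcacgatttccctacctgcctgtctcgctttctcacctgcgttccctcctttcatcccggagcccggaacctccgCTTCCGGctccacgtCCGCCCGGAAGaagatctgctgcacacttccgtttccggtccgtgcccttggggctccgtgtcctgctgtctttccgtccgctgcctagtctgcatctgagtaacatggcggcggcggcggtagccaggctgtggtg
ATP5MC1: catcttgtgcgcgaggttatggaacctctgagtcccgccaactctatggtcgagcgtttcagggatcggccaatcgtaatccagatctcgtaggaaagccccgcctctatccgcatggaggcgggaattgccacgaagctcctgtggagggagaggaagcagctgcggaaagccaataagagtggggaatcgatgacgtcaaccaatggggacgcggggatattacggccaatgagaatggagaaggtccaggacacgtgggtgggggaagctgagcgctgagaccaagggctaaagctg
COX6A1: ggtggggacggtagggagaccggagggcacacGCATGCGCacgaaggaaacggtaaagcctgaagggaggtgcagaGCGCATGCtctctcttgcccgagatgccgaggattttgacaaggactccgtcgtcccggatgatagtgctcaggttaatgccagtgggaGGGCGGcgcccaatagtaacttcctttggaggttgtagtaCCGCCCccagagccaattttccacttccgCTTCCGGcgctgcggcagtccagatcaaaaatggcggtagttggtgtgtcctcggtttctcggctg
NDUFS3 held 2 ETS matches and 1 SP1 match, COX6A1 held 2 NRF1, 1 ETS and 2 SP1 matches, and ATP5MC1 held none of these letters.

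Of the 81 genes, 70 matched the RefSeq promoter table, with 83 windows of 300 bases. The NRF1 motif was in 18.1% of these windows, against 3.05% of all 35116 windows. The ETS motif was in 26.5% against 10.3%, the YY1 motif in 14.5% against 2.89%, the SP1 motif in 63.9% against 45.0%, and the letters TATAAA of a TATA box in 8.43% against 11.5%. The windows of these genes held a median of 22 CpG dinucleotides, against 14 over all windows. The median log2 ratio at 6 h was -0.44 for the 27 measured subunits with an NRF1 or ETS match and -0.59 for the 35 without. For the YY1 motif it was -0.55 with (11 genes) and -0.51 without, for the SP1 motif -0.50 with (40 genes) and -0.61 without, and for TATAAA -0.64 with (7 genes) and -0.51 without, so the sign of the difference varied between motifs. A match is a description of letters, and binding was not measured.

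In complex I, the largest differences were in a core subunit of the matrix arm and in small accessory subunits. NDUFS3, a core subunit of the matrix arm, had signals of 657, 285, 197, 169, 174 and 194 at 0, 1, 3, 6, 24 and 48 h. All 5 coculture arrays were below 0 h, and it was the only subunit at least 2-fold lower at every coculture time, by 2.30-fold, 3.89-fold and 3.38-fold at 1, 6 and 48 h. The gene has 1 probe set, so no second one can be set beside it.

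The other core subunits differed less. NDUFV2, which carries an iron-sulfur cluster next to the flavin site, had signals of 3096, 1944, 1772, 2127, 2127 and 1882, lowest at 3 h with a log2 ratio of -0.81. NDUFV1, the flavin-binding subunit that takes electrons from NADH, had 392, 288, 262, 291, 272 and 267, so its 5 coculture arrays lay close together and below 0 h. NDUFS7, the subunit that hands electrons towards ubiquinone, had 112, 82.3, 65.4, 76.6, 78.2 and 95.1. NDUFS1, the largest core subunit, had 892, 809, 717, 771, 877 and 953, and its log2 ratio ran from -0.32 at 3 h to 0.10 at 48 h. Its other probe sets above the floor gave -0.02 and 0.22 at 6 h. The median log2 ratio of these 5 core genes was -0.44, -0.78, -0.54, -0.53 and -0.55 at 1, 3, 6, 24 and 48 h. For the 28 accessory genes it was -0.31, -0.51, -0.62, -0.47 and -0.39.

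Among the accessory subunits, 6 were at least 2-fold lower at 6 h. NDUFA7 had signals of 265, 169, 97.8, 95.6, 124 and 106 in the probe set used, which was still 2.51-fold lower at 48 h. A dim second probe set of NDUFA7 went the other way, from 21.8 at 0 h to 31.55 (6 h) and 26.2 (48 h). That dim probe set was also above 0 h at 1 h, below it at 24 h and under the floor at 3 h. NDUFB3 had 584, 322, 250, 252, 357 and 340.0 and was 2.31-fold lower at 6 h. NDUFA13, also known as GRIM-19, had 155, 107, 102, 45.3, 86.0 and 90.7, with the 6 h array 3.42-fold lower and the neighbouring arrays well above it. NDUFS6, a zinc-binding subunit of the matrix arm, had 2571, 1715, 1442, 1165, 1297 and 1573, and was 2.21-fold lower at 6 h.

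NDUFA2 and NDUFB7 were also lower at 6 h in the probe set used but not in another, dim one. NDUFA2 had signals of 470.0, 342, 314, 210.0, 312 and 295, a log2 ratio of -1.16 at 6 h. NDUFB7 had 73.8, 65.1, 39.5, 30.8, 59.5 and 59.0, a log2 ratio of -1.26 at 6 h. These other probe sets were near the floor and gave 0.73 and 0.96.

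Other accessory genes differed between their own probe sets. For NDUFB10 the probe set used had signals of 415, 372, 333, 298, 320 and 316, a log2 ratio of -0.48 at 6 h. The other one, dimmer by mean log2 signal, had 902, 620, 324, 171, 199 and 202, a log2 ratio of -2.40 at 6 h. Both were below 0 h on all 5 coculture arrays, and they differed in size. For NDUFA6 the 6 h log2 ratio was 0.02 in the probe set used and -0.68 in the other.

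NDUFA5, an accessory subunit of the matrix arm, was the exception in complex I. It had signals of 1012, 1108, 1037, 1058, 1180 and 1506, above 0 h at all 5 times and 1.49-fold higher at 48 h. Its dim second probe set was below 0 h at 1 h (log2 ratio -0.25) and above it at the later times, by 0.43 at 48 h. The brightest complex I probe set by mean signal, that of NDUFA6, had 3230, 2941, 2668, 3285, 3802 and 3236, lowest at 3 h and highest at 24 h.

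In complex II, which is entirely nuclear-encoded and also works in the tricarboxylic acid cycle, the 3 genes followed one another closely in the probe sets used. SDHA, the flavoprotein that oxidises succinate, had signals of 504, 422, 374, 381, 410 and 489. SDHC, a membrane anchor, had 682, 573, 541, 482, 594 and 654, and SDHD, the other anchor, had 1584, 1398, 1246, 1259, 1486 and 1739. All 3 were lower from 1 h to 24 h and within 1.10-fold of 0 h at 48 h, and none was 2-fold lower at any time. The iron-sulfur subunit SDHB was not analysed here. For SDHC, 2 further probe sets, with signals of 76.9 and 127 at 0 h, had log2 ratios of -1.27 and -1.27 at 24 h and did not return towards 0 h as the one used did. Another, with 109 at 0 h, was above 0 h at 1 and 3 h (log2 ratios of 0.44 and 0.32). A dim one, with 42.8 at 0 h, gave 0.21 at 1 h and -0.75 at 3 h.

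In complex III, all 6 genes were below 0 h at 1, 3 and 6 h. UQCR10, a small subunit of the membrane core, had signals of 328, 214, 192, 147, 195 and 214 and was 2.23-fold lower at 6 h. Its second probe set had 155, 92.8, 96.4, 53.0, 130.2 and 145, with the lowest array again at 6 h. UQCRC1, a core protein facing the matrix, had 1289, 1089, 810.3, 692, 801 and 931, a log2 ratio of -0.90 at 6 h. UQCR11, a small subunit, differed least in the probe set used, with 1785, 1582, 1603, 1433, 1820 and 1788, back at its 0 h signal at 24 and 48 h. Its dim second probe set, with 37.9 at 0 h, was under the floor at 3, 6 and 24 h, so at least 2.33-fold lower there. UQCRQ, UQCRC2 and UQCRB had log2 ratios of -0.66, -0.60 and -0.46 at 6 h.

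Complex IV held genes on both sides of 0 h. COX6C, the small subunit lowest at 48 h, had signals of 2132, 1734, 1490, 1395, 1400 and 1146. COX6B1, which lies between the monomers of the dimer, was lowest at 6 h (log2 ratio -0.82) and above 0 h at 24 h (0.16). COX7B, a small membrane subunit, had -0.64 at 6 h in the bright probe set used. Its dim second probe set, with a signal of 34.7 at 0 h, was above 0 h on all 5 coculture arrays (log2 ratios from 0.45 at 6 h to 1.68 at 1 h), so the direction of COX7B depends on the probe set. COX4I1, the ubiquitous form of the subunit that binds ATP, had 1800, 1496, 1397, 1442, 1628 and 1708, within 1.29-fold of 0 h throughout in the probe set used. At 48 h another bright probe set of COX4I1 gave a log2 ratio of 0.25. A dim one, with 59.9 at 0 h, gave -0.89. COX7C, the brightest of the complex, had 6589, 5005, 5781, 4916, 5500 and 5603, with all 5 coculture arrays below 0 h.

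COX6A1 and COX7A2, the ubiquitous forms of subunits that also have heart and muscle forms, went the other way. COX6A1 had signals of 1334, 1464, 1106, 1736, 2196 and 2533, below 0 h at 3 h only, and was higher by 1.65-fold at 24 h and 1.90-fold at 48 h. COX7A2 had 714, 825, 837, 880.0, 1275 and 1144, above 0 h on all 5 arrays and 1.79-fold higher at 24 h. COX5A, a subunit on the matrix side, had 3349, 3265, 2972, 3014, 3730 and 3870, while its dim second probe set was below 0 h on all 5 arrays, with a log2 ratio of -1.13 at 48 h.

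The tissue-restricted forms were dim. COX4I2, the form known from lung and from low oxygen, had signals of 42.2, 42.3, 36.3, 33.7, 58.3 and 26.7, highest at 24 h and lowest at 48 h. COX6A2, the heart and muscle form, and COX6B2, a testis form, did not exceed 23.3 and 21.8 on any array, and their values carry no order near the floor. COX7A2L, which joins complexes III and IV in supercomplexes, had 1807, 1595, 1577, 1457, 1530 and 1713, at most 1.24-fold lower than at 0 h.

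In complex V, the genes at least 2-fold lower at 6 h were all 3 genes of the c ring, 1 of the catalytic head and its stalk, and 1 of the peripheral stalk. ATP5MC1, ATP5MC2 and ATP5MC3 encode the same mature c subunit, the rotor ring through which protons return, behind different import sequences. ATP5MC1 had signals of 854, 585, 366, 306, 329 and 328, at least 2-fold lower at 3, 6, 24 and 48 h. ATP5MC3 had 1742, 1203, 1110, 822, 998 and 1041, 2.12-fold lower at 6 h, and its other probe sets gave log2 ratios of -0.76 and -0.36 at that time. ATP5MC2 was dim, with 53.8, 44.8, 39.8, 16.8, 20.9 and 76.0, just above the floor at 6 h and above its 0 h signal at 48 h.

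ATP5F1D, the delta subunit of the central stalk, had signals of 590.3, 408, 244, 223, 236 and 188. Its lowest array was that at 48 h, 3.13-fold below 0 h. Its second probe set had 184, 176, 138, 98.8, 127 and 43.4, also lowest at 48 h. ATP5PF, coupling factor 6 of the peripheral stalk, had 1293, 928, 756, 616, 845 and 917, 2.10-fold lower at 6 h with higher signals after it.

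The catalytic subunits themselves differed less. ATP5F1A, the alpha subunit, had signals of 4448, 4214, 4552, 3945, 4013 and 4078, within 1.13-fold of 0 h. ATP5F1B, the beta subunit with the catalytic sites, had 2961, 2568, 2367, 2076, 2233 and 2466, a log2 ratio of -0.51 at 6 h. ATP5F1C, the gamma subunit and the brightest of the complex, had 5472, 5024, 4836, 4736, 4243 and 4303, lowest at 24 h. ATP5F1E, the epsilon subunit, was above 0 h from 6 h on, with 3825, 3526, 3366, 4259, 4265 and 4795. In its dim second probe set the log2 ratio was 0.44 at 6 h, then -0.05 at 48 h.

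By place in the enzyme, the median log2 ratio at 6 h was -1.48 for the c ring (3 genes), -0.50 for the peripheral stalk (4 genes), -0.38 for the other measured membrane subunits (4 genes) and -0.21 for the head and central stalk (5 genes). At 48 h these were -0.74, -0.30, -0.22 and -0.26. The c ring median at 6 h is the value of ATP5MC1. With the floor at the 65th percentile the dim ATP5MC2 had -0.52 at 6 h. ATP5IF1, which blocks the enzyme from running backwards, had signals of 1028, 758, 655, 511, 661 and 653, a log2 ratio of -1.01 at 6 h. Its other probe sets gave 0.11 and 0.09 at that time, so its direction depends on the probe set.

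**Figure D3:**
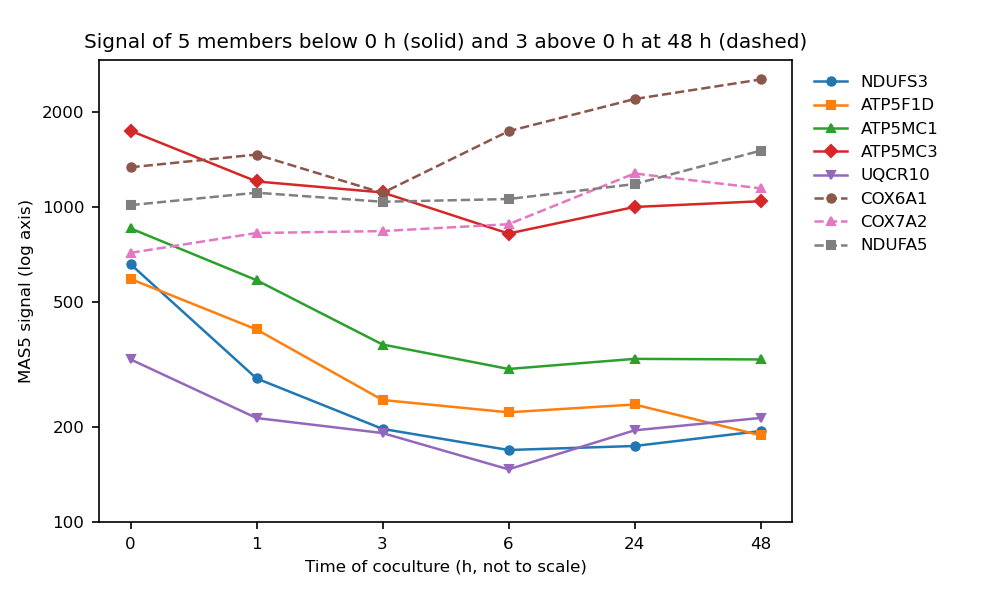
MAS5 signal (log axis) over time in h (horizontal axis, not to scale) of 5 subunit genes below 0 h at all 5 coculture times (solid lines) and 3 above 0 h at 48 h (dashed lines), 1 array per point. NDUFS3 goes from 657 to 169 at 6 h and COX6A1 from 1334 to 2533 at 48 h. Heights are not comparable between genes, since each line is another probe set.

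The complex II assembly factors were dimmer than most subunits and did not share 1 course. SDHAF1 had signals of 312, 260, 203, 167, 186 and 164, below 0 h at all 5 times. SDHAF4 had 43.1, 46.3, 31.1, 17.2, 34.8 and 40.3, 2.50-fold lower at 6 h only. SDHAF3 had 41.8, 42.7, 14.95, 39.9, 63.9 and 79.4, under the floor at 3 h and so at least 2.58-fold lower there. SDHAF2 had a log2 ratio between -0.31 and -0.52 at all 5 times.

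Other genes of mitochondrial energy metabolism were set beside the subunits as lists. Of 48 assembly factors of the complexes, which build them but are not part of them, 47 were measured, with median log2 ratios of -0.20, -0.43, -0.47, -0.34 and -0.30 at 1, 3, 6, 24 and 48 h. The list includes the 4 SDHAF genes, and without them its median at 6 h was also -0.47. At 6 h 5 of the 47 were at least 2-fold lower and none was 2-fold higher, beside 6.45% and 4.23% of all measured genes. Among them COA1 had signals of 119, 85.6, 66.6, 45.5, 74.4 and 79.4, and UQCC3, which acts in complex III assembly, had 208, 149.9, 109, 82.9, 165 and 176, both lowest at 6 h. The 72 mitochondrial ribosomal proteins, which translate the mitochondrially encoded subunits, had medians of -0.28, -0.52, -0.65, -0.39 and -0.34, with 17 at least 2-fold lower at 6 h and none at least 2-fold higher, beside the same 6.45% and 4.23%.

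The lists around the chain stood nearer to 0. The 15 measured genes of the tricarboxylic acid cycle and pyruvate dehydrogenase had a median of -0.13 at 6 h. None was at least 2-fold lower then, beside 6.45% of all measured genes, a share at which so short a list can hold none. In this list CS, citrate synthase, had 1421, 1158, 1154, 887, 833 and 786. DLST, a subunit of the oxoglutarate dehydrogenase complex, had 61.7, 104, 136, 105, 125 and 135, so the list held genes on both sides. The 14 genes listed for electron carriers and exchange across the membranes had a median of -0.18 at 6 h. This list includes the protein import genes TOMM20, TOMM22 and TIMM23, and CYC1, a complex III subunit outside the symbol rule. At 6 h CYC1 had a log2 ratio of -0.43 and TOMM20 one of 0.24. SLC25A4, the ADP/ATP exchanger of muscle, had signals of 269, 167, 125, 136, 128 and 184. The 53 measured cytosolic ribosomal proteins, short and abundant transcripts like those of the subunits, had medians of -0.08 (6 h) and -0.03 (48 h).

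The 11 measured regulators of mitochondrial biogenesis had a median of 0.13 at 6 h. None was at least 2-fold lower or higher then, beside 6.45% and 4.23% of all measured genes, shares at which so short a list can hold none. PPARGC1B, a coactivator of respiratory genes, had signals of 115, 126, 115, 164, 217 and 174. PPRC1, a related coactivator, had 133, 190.0, 232, 235, 198 and 145, highest at 3 and 6 h. GABPA, the ETS-family subunit of GABP, had 105, 58.1, 84.6, 59.4, 86.1 and 128, with the lowest arrays at 1 and 6 h. YY1 had 1917, 2387, 2701, 2770, 3265 and 3443, each array above the one before.

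Of the subunits that mitochondrial DNA encodes, 7 had a probe set of their own, a list added after the data were seen. The 7 genes had median log2 ratios of -0.06, 0.21, -0.05, 0.09 and 0.22 at 1, 3, 6, 24 and 48 h, and they did not move together. ATP6, the a subunit of ATP synthase, had signals of 2681, 3944, 4789, 5377, 3955 and 5964, and ND6, of complex I, had 2073, 1412, 1085, 919, 1596 and 1241. At 6 h ATP6 was at least 2-fold higher and ND6 at least 2-fold lower than at 0 h.

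**Figure D4:**
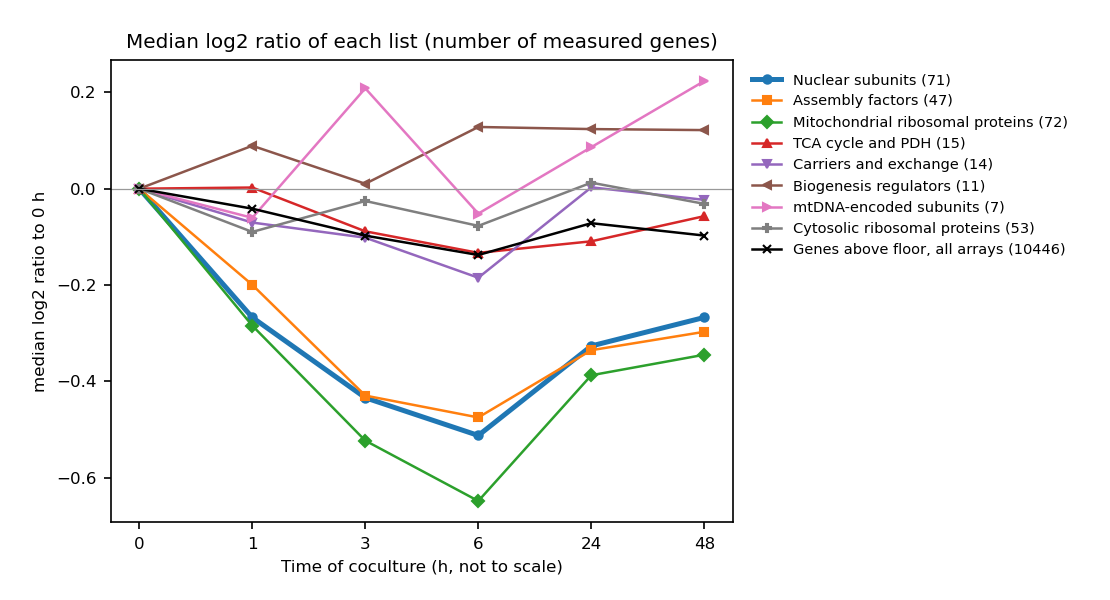
Median log2 ratio to 0 h (vertical axis) over time in h (horizontal axis, not to scale) for the nuclear subunits, 7 other lists of genes and all genes above the floor on all arrays, with the number of measured genes in the key. At 6 h the nuclear subunits (-0.51), assembly factors (-0.47) and mitochondrial ribosomal proteins (-0.65) lie below the remaining lists, which run from -0.18 to 0.13.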

How the data were processed

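RNA of Caco-2 cells was measured on 6 Affymetrix HG-U133 Plus 2.0 arrays, 1 per time. Per the labels' protocols, biotinylated cRNA was prepared from 4 µg of total RNA. The deposited values are MAS5 signal intensities on a linear scale, MAS5 being named in the submitters' processing notes; its version, its scaling target and its present or absent calls are not stated in any source used here. MAS5 scales each array to a common trimmed mean, so total RNA per cell is not measured, and low signals are noisy. No further scaling was applied.

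Of 54675 probe sets, 41097 carried 1 gene symbol, 1801 several and 11777 none; control probe sets (62) and those without exactly 1 symbol were left out. Symbols were updated through a RefSeq gene table of GRCh38.p14, in which the identifiers of 41037 of the 41091 probe sets used were found. For each gene the probe set brightest on average in log2 over the 6 arrays was taken, signals under 16.2 were set to that floor, and log2 ratios to 0 h were computed in Python 3.11.15 with pandas 2.3.3 and numpy 2.4.6. A fold counts from 2-fold with the brighter array above the floor. The size rule was run on simulated arrays in which all planted changes were larger than 2-fold. False calls were not counted, so that run checks the computation and not the precision of the data. There is 1 array per time, which limits the precision, so no p-value is given.

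The genes and lists were chosen with earlier results of these data known. Named with values were genes at least 2-fold different at any time, the brightest, lowest and highest of each complex, the complex I core, complex II, the c ring, the COX4 forms, COX7A2L and ATP5IF1, and up to 4 genes of other lists; further genes were named after their values were seen. No value column was left unused. Alternatives were the floor, a pseudocount, the scaling, the choice of probe set, the baseline array and a 1.5-fold rule.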

Additional observations from a re-analysis of the deposited data

How the results depend on the processing

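Against the 0 h array, 240 medians of all subunits and of the complexes were recomputed under other floors, a pseudocount, other scalings and other probe set choices; 229 were below 0, and the largest change was 0.42 on the log2 scale. The median of complex II at 1 h was above 0 (0.13) without probe sets ending in _x_at or _s_at, a setting that leaves 58 measured subunits. With the 1 h array as baseline, complex II at 24 h (0.052) and complex III at 48 h (0.063) were above 0, and complex III at 3 h was -0.20. Against that array the medians of complex II at 48 h and of complex IV at 24 and 48 h were also above 0.

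The number of subunits at least 2-fold lower at 1 h was 2 with a floor at the 30th percentile, with the median over probe sets and when _x_at and _s_at probe sets were left out. At 48 h the median over probe sets gave 7. Leaving out _x_at and _s_at probe sets gave 8 at 6 h, and there 29 subunits were below 0 h at all 5 times. Against the 1 h array there were 0, 3, 1 and 1 at 3, 6, 24 and 48 h. A 1.5-fold rule gave 5, 24, 31, 20 and 17 lower at 1, 3, 6, 24 and 48 h, and 2 higher at 24 h and 2 at 48 h. With each array centred on the median of expressed genes, 1 subunit was at least 2-fold higher at 48 h. The 6 h ratio of NDUFA2 was 0.73 with the median over probe sets and when _x_at and _s_at probe sets were left out, and that of NDUFB7 was 0.96 in the latter. Of 237 values of single genes, 193 kept their direction and size class and 41 kept the direction below 2-fold. Causes beyond the smaller number of probe sets or the changed baseline were not tested.

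NDUFA4 could not be moved between complexes, since no probe set carries that symbol alone. No paired analysis was possible because each time has 1 array and no replicate. The 0 h array enters every ratio to 0 h, so an error in it would shift all times together.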
